A study of Mus musculus with 2 samples.

Results

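The Hox clusters of the mouse carry miRNA genes between and within their protein-coding Hox genes, and 6 of them are described here: Mir10a, Mir10b, Mir196a-1, Mir196a-2, Mir196b and Mir615. They were chosen by gene symbol, through the Ensembl identifiers of the count tables, and make up 6 of the 1973 miRNA genes measured. Small RNA was sequenced from the neural tube of newborn mice of strain B6NCrl (postnatal day 0). The data are 1 group of 2 libraries, each from a single neural tube, of pup 1 and pup 2 of the same dam, with sex not collected. No treatment, genotype or region was compared, and how much of the body axis each dissected tube covered is not given in the sources used here.

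A miRNA gene is transcribed into a hairpin precursor, from which a short mature strand is cut. The mature strand lowers the output of messenger RNAs that pair with its seed, the bases near its 5′ end. Hox genes encode transcription factors that set position along the body axis. Genes at the low-numbered end of a cluster are used from the hindbrain downwards, and genes at the high-numbered end only further towards the tail. The miR-10 genes sit near the Hox4 paralogs and the miR-196 genes on the high-numbered side of the Hox9 paralogs, and both families are known to target Hox messages. Counts are per precursor gene, so the 5p and 3p arms of a hairpin were not told apart. In animals the 5p arm is usually the main product of miR-10 and miR-196, and the 3p arm that of miR-615.

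The mature sequences are shown because they decide which genes can be told apart by a short read and which share a seed. They are RefSeq sequences of build GRCm38.p6, written 5′ to 3′, with the seed (bases 2 to 8) in capitals, and all 6 genes had them.
mmu-miR-10a-5p: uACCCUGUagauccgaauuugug
mmu-miR-10b-5p: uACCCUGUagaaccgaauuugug
mmu-miR-196a-5p: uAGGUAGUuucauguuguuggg
mmu-miR-196b-5p: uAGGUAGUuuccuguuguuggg
mmu-miR-615-3p: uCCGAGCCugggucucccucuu
mmu-miR-615-5p: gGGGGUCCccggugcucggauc

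The miR-10 pair shares its seed and 22 of 23 bases. The single change from miR-10a-5p to miR-10b-5p is U12A, counted from 1 at the 5′ end. Their longest common run is 11 bases, and no stretch of 18 bases of either mature strand was found in any of the other 1004 miRNA hairpins searched, so a read of that length places itself in 1 annotated hairpin. The miR-196 strands also share a seed and 21 of 22 bases, with the change A12C from miR-196a-5p to miR-196b-5p. No other mature mouse miRNA in the RefSeq table had the miR-10 or the miR-196 seed. The miR-615 seeds were likewise its own.

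Mir196a-1 and Mir196a-2 make the identical miR-196a-5p. All 22 bases of it occur in both hairpins, and 22 bases is also the longest stretch the hairpins have in common. They are shown with the mature parts in capitals, because only bases outside the shared 5p strand can place a read in 1 of them.
Mir196a-1: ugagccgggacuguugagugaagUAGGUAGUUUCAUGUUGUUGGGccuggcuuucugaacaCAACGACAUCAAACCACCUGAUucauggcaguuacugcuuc
Mir196a-2: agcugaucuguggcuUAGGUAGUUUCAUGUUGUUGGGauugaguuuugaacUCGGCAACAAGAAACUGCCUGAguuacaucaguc
Their 3p strands differ at 17 of 22 bases. A read of the 5p strand alone fits both genes. The tables hold a class of multimapping reads outside the gene rows, 35.7% of reads in pup 1 and 35.4% in pup 2, but the rule that sent reads to it is not given in the sources used here. How many miR-196a-5p reads are in that class, and how many in the counts of either gene, was not measured, so these counts cannot be read as the level of miR-196a.

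The 6 genes lie in all 4 clusters, and each is on the strand of its Hox genes. Positions are from GENCODE M21 on the same genome build (mm10). Mir10b (chr2:74726070-74726137, plus strand) is in introns of Hoxd3 and Hoxd4 transcripts of the HoxD cluster, 18136 bases from Hoxd8. Mir10a (chr11:96317165-96317274, plus strand) is between genes of the HoxB cluster, 992 bases from Hoxb4 and 11043 bases from Hoxb5. Mir196a-1 (chr11:96265164-96265265, plus strand) is in the same cluster, 6191 bases from Hoxb9 and 67716 bases from Hoxb13, also outside annotated genes. Mir196b (chr6:52230081-52230165, minus strand) overlaps exons of noncoding Hoxa9 transcripts in the HoxA cluster, 1031 bases from Hoxa10. In the HoxC cluster, Mir196a-2 (chr15:102973350-102973434, plus strand) is 1456 bases from Hoxc10 and 3004 bases from Hoxc9, in the intron of a long noncoding Hoxc5 transcript. Mir615 (chr15:103014910-103015001, plus strand) is in introns of Hoxc5. Between the outermost Hox genes the annotation holds 1 other miRNA gene, Gm44463 on the opposite strand of HoxD, which is not analysed here.

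**Figure D1:**
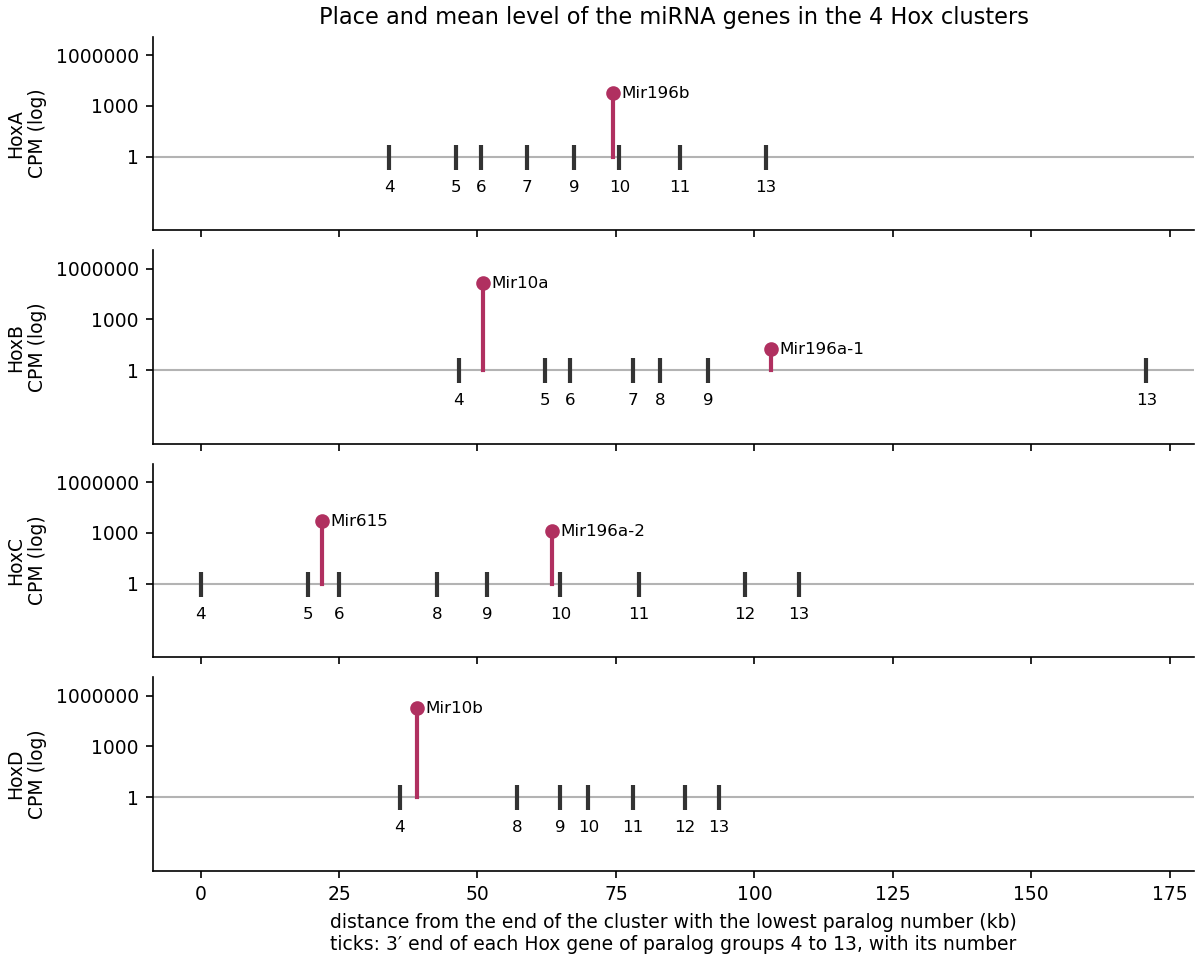
Place of the 6 miRNA genes (red stems) in the 4 Hox clusters, as distance in kb from the end of each cluster with the lowest paralog number, with ticks at the 3′ end of each Hox gene of paralog groups 4 to 13. Stem height is the mean level over both pups in CPM (counts per 1000000 own-strand counts) on a log axis; the miR-10 genes beside the Hox4 paralogs stand highest, at 180672 and 135956 CPM, and Mir196a-1 lowest, at 17.3 CPM.

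Together the 6 genes held 1097855 of 3216453 own-strand counts in pup 1 and 1155443 of 3660693 in pup 2. This is a share of 34.1% (exact 95% binomial interval 34.1 to 34.2%) and 31.6% (31.5 to 31.6%), with a mean of 32.8% ± 1.82 (SD, n = 2). The miR-10 pair made up 96.0% of these counts in pup 1 and 96.8% in pup 2. By cluster, HoxD held 18.8% and 17.4% of all own-strand counts through Mir10b alone, and HoxB 14.0% and 13.2% through Mir10a and Mir196a-1. HoxC held 0.675% and 0.577%, and HoxA 0.689% and 0.426%. HoxD was thus above HoxB in both pups, whereas the order of HoxA and HoxC turned between them. These shares leave out reads that name no gene, 49.4% of reads in pup 1 and 49.2% in pup 2. Of all reads the 6 genes held 17.3% in pup 1 and 16.0% in pup 2. The shares of HoxB and HoxC may also lack reads of the shared miR-196a-5p. Intervals cover counting error only, and in bulk tissue fewer cells that make a miRNA and less of it per cell cannot be told apart. How evenly the library preparation captured different mature sequences was not measured. Folds and orders between genes, here and below, therefore compare counts and not amounts of miRNA.

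Mir10b, in HoxD, had 603121 counts in pup 1 and 636349 in pup 2, which is 187511 and 173833 counts per 1000000 own-strand counts (CPM). It ranked 1 of 1973 genes in both pups by reads counted to a gene. Reads that fit several gene copies may lie outside these counts, so ranks against multi-copy genes are less certain. CPM was not divided by gene length, since the reads come from mature strands of nearly equal length. Mir10a, its paralog in HoxB, had 450793 and 482330 counts, or 140152 and 131759 CPM, and ranked 2 in both pups. Mir10b exceeded Mir10a by 1.34-fold in pup 1 (exact 95% interval 1.333 to 1.343) and by 1.32-fold in pup 2 (1.314 to 1.324). The values of Mir10b lay above those of Mir10a in both pups, and the ratio averaged 1.33 ± 0.013 (SD, n = 2). The intervals of the 2 pups do not overlap, so the ratio itself differed between the libraries beyond counting error, by a small amount. With 2 libraries the SD rests on 1 difference.

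The next members were more than 20-fold lower than Mir10a in either pup. Mir196b, in HoxA, had 22172 counts in pup 1 and 15590 in pup 2, or 6893 and 4259 CPM, at ranks 26 and 40. Mir615, in HoxC, had 17004 and 17098 counts, or 5287 and 4671 CPM, at ranks 29 and 35. Their order was not stable. The ratio of Mir615 to Mir196b was 0.767 in pup 1 (0.752 to 0.782) and 1.10 in pup 2 (1.07 to 1.12). The 2 genes thus did not differ in CPM beyond the spread of the pups. Mir615 lies at nearly the same place among the Hox paralogs as the miR-10 genes, inside a Hox5 gene. Its counts were 26.5-fold below those of Mir10a in pup 1 and 28.2-fold below them in pup 2.

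Mir196a-2, the other HoxC member, had 4697 counts in pup 1 and 4027 in pup 2, or 1460 and 1100 CPM. Mir615 stood above it by 3.62-fold in pup 1 and 4.25-fold in pup 2, and its values lay above those of Mir196a-2 in both pups. Mir196a-1, in HoxB, had 68 and 49 counts, or 21.1 CPM (16.4 to 26.8) and 13.4 CPM (9.90 to 17.7). These counts are above the 3 counts that a count of 0 allows, which are 0.933 CPM in pup 1 and 0.820 CPM in pup 2, but its level is the least certain of the members. Within HoxB, Mir10a exceeded Mir196a-1 by 6629-fold in pup 1 (5229 to 8537) and by 9843-fold in pup 2 (7445 to 13306). The counts of both Mir196a genes may lack reads of the shared miR-196a-5p. Folds of Mir615 and Mir10a over them therefore compare counts and not levels.

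Among the miR-196 genes, Mir196b exceeded Mir196a-2 by 4.72-fold in pup 1 (4.57 to 4.87) and by 3.87-fold in pup 2 (3.74 to 4.01). It exceeded Mir196a-1 by 326-fold and 318-fold, with overlapping intervals (257 to 420 in pup 1 and 241 to 430 in pup 2). Mir196a-2 exceeded Mir196a-1 by 69.1-fold in pup 1 and 82.2-fold in pup 2. Because the placing of reads of the shared 5p strand is not known, these ratios do not rank the amounts of miR-196a and miR-196b. Together the miR-196 genes held 0.837% of own-strand counts in pup 1 and 0.537% in pup 2, against 32.8% and 30.6% for the miR-10 genes. Reads of the shared miR-196a-5p may be missing from the miR-196 share, and how many was not measured. The size of this contrast between the families is therefore not known.

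**Figure D2:**
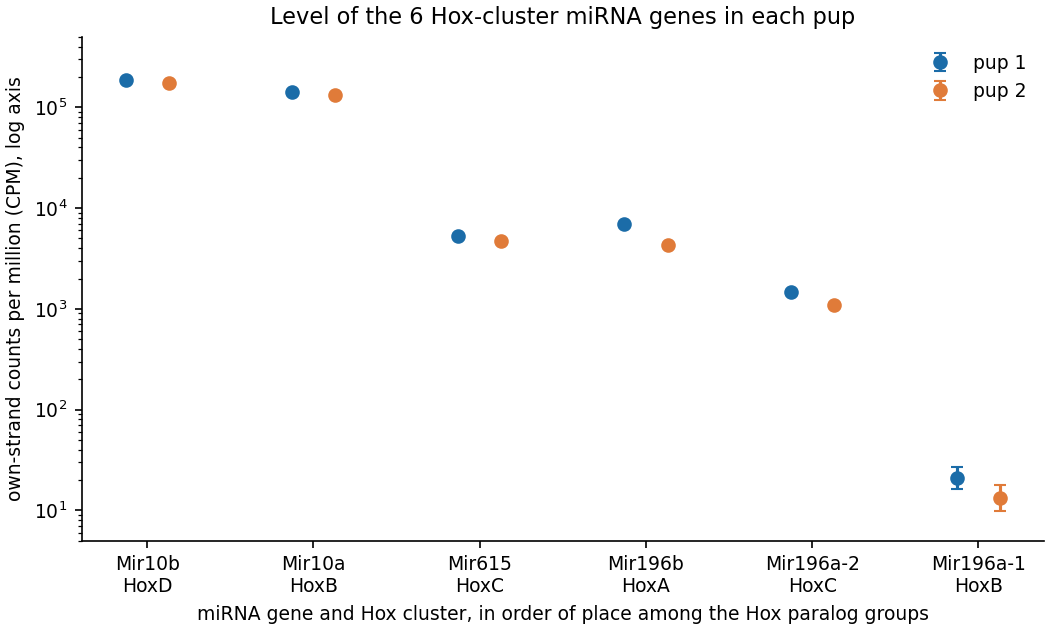
Level in CPM (log axis) of the 6 genes in pup 1 (blue) and pup 2 (orange), in order of their place among the Hox paralog groups; bars are exact 95% intervals of counting error, which are smaller than the points for all genes but Mir196a-1. The points of Mir615 and Mir196b lie at similar heights, from 4259 to 6893 CPM, and the other genes are apart from each other in both pups.

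**Figure D3:**
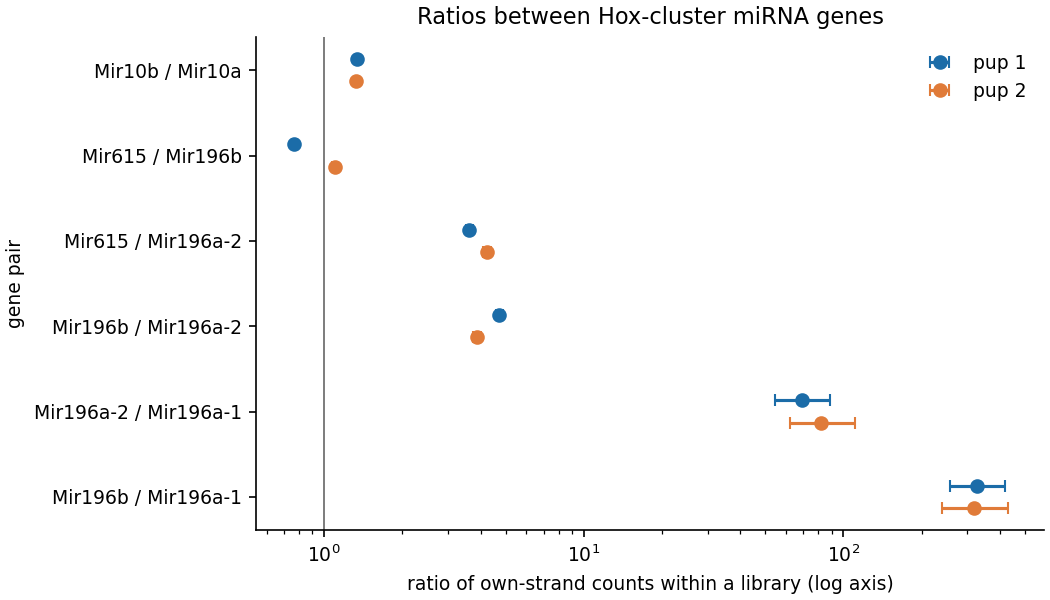
Ratio of own-strand counts between pairs of members within pup 1 (blue) and pup 2 (orange), on a log axis, with exact 95% intervals of counting error. Mir10b over Mir10a stays near 1.33 in both pups, while Mir615 over Mir196b lies below 1 in pup 1 (0.767) and above 1 in pup 2 (1.10).

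No member had opposite-strand counts in either pup except Mir10a, with 1 count in pup 1 and 0 in pup 2. By level over the 2 libraries, as the distance in log2(CPM + 1), the measured gene nearest to both Mir10a and Mir10b outside the Hox clusters was Mir99a (distance 0.51 and 1.09), at 109816 CPM in pup 1 and 102094 CPM in pup 2. Mir181d was nearest to Mir615 and to Mir196b (0.10 and 0.50), Mir134 to Mir196a-2 (0.09) and Mir344f to Mir196a-1 (0.39). This likeness is of level in 2 libraries of the same tissue and nothing more.

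Mir99a is also a relative by sequence. The miR-99, miR-100 and miR-125 genes outside the Hox clusters are classed with miR-10 in an ancient family, but their seeds differ, which these RefSeq sequences show, with the seed in capitals.
mmu-miR-99a-5p: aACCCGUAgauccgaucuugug
mmu-miR-100-5p: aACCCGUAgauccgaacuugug
mmu-miR-125b-5p: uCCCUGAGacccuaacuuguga
The longest run in common with miR-10a-5p was 10 bases in miR-99a-5p, 11 in miR-100-5p and 5 in miR-125b-5p. The 6 relatives together had 142848 CPM in pup 1 and 135727 CPM in pup 2, against 327663 and 305592 CPM for the miR-10 pair. Mir125b-1 and Mir125b-2 make the identical miR-125b-5p. Reads of that strand fit both genes and may be missing from the sum of the relatives. Mir100 had 17175 and 16393 CPM, and Mir99b 8769 and 9821 CPM.

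All 6 members were higher in pup 1 than in pup 2. An exact two-sided binomial test of 1 library against the other, with Benjamini-Hochberg adjustment over the 413 genes with a summed count of 10 or more, called each of them at an adjusted p under 0.05. Over all tested genes 15.3% were called higher in pup 1, 25.7% lower and 40.9% in either direction, and the test covers counting error only, so it compares these 2 libraries and not a condition. With many counts the test calls small differences, such as Mir335 at a log2 ratio of -0.03. These shares are therefore a low background for members with many counts. At a summed count of at least 50, 64 of 311 genes were called higher and 110 lower. The median log2 ratio (0.5 added to each count) was 0.29 over the 6 members and -0.04 over all tested genes. The dispersion of both libraries taken as replicates came to a biological coefficient of variation of 14.4%. With that variation allowed for, edgeR's exact test called no member and 0 of 413 genes (27 at an unadjusted p of at most 0.05), with adjusted p-values of 0.547 for Mir196b, 0.863 for Mir196a-1, 0.969 for Mir196a-2 and 1 for the other members. That estimate contains the difference between the pups itself. The pups' difference is therefore beyond counting error, and did not pass a test that allows for variation between libraries.

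The difference was smaller for the miR-10 genes and Mir615 than for Mir196a-2 and Mir196b, whose intervals lay apart from theirs. Mir10b was 1.08-fold higher in pup 1 (log2 ratio 0.11, exact 95% interval of the fold 1.07 to 1.08), Mir10a 1.06-fold (0.09, 1.06 to 1.07) and Mir615 1.13-fold (0.18, 1.11 to 1.16). These are the members near the Hox4 and Hox5 paralogs. The miR-196 genes lie on the high-numbered side of the Hox9 paralogs. No other member does, so Hox position and miRNA family cannot be told apart in these ratios. Mir196a-2 was 1.33-fold higher (log2 ratio 0.41, 1.27 to 1.38), Mir196a-1 1.57-fold (0.66, 1.08 to 2.33) and Mir196b 1.62-fold (0.69, 1.59 to 1.65). The interval of Mir196a-1 overlapped those of Mir10b and Mir615. Counts of both Mir196a genes may lack reads of the shared miR-196a-5p, so their ratios between the pups compare counts and not the level of miR-196a. Adjusted p-values of the exact test were 0.0394 for Mir196a-1, 3.16e-29 for Mir615, 9.35e-39 for Mir196a-2 and at most 2.02e-193 for Mir10a, Mir10b and Mir196b. With every gene that had a count admitted to the test, the adjusted p of Mir196a-1 was 0.0645 and its call was lost.

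Set against genes of like level, Mir196b had the highest ratio in pup 1 over pup 2 of the 75 detected genes within 4-fold of its own level. Mir196a-2 was among the 4 highest of 115, Mir196a-1 among the 6 highest of 111 and Mir615 among the 12 highest of 79. Mir10a and Mir10b had ratios like that of Mir99a (0.11), the gene nearest to them in level. The SD of the log2 ratio over the 352 genes detected (10 or more counts in each pup) was 0.37, and Mir10a, Mir10b and Mir615 lay within that distance of 0, whereas the 3 miR-196 genes lay beyond it. Those ranks count 1 direction only. By size in either direction, 30 of the 352 detected genes had a log2 ratio at least as far from 0 as Mir196b, itself included. The same count was 33 for Mir196a-1, 78 for Mir196a-2, 195 for Mir615, 239 for Mir10b and 267 for Mir10a. Only 2 libraries stand behind this pattern, and its call rests on counting error alone. Of the 6 relatives outside the Hox clusters, 3 (Mir99a, Mir100 and Mir125b-2) were called higher in pup 1 and 3 (Mir99b, Mir125a and Mir125b-1) lower, with a median log2 ratio of -0.01. Among all tested genes 15.3% were called higher and 25.7% lower by this counting-error test.

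**Figure D4:**
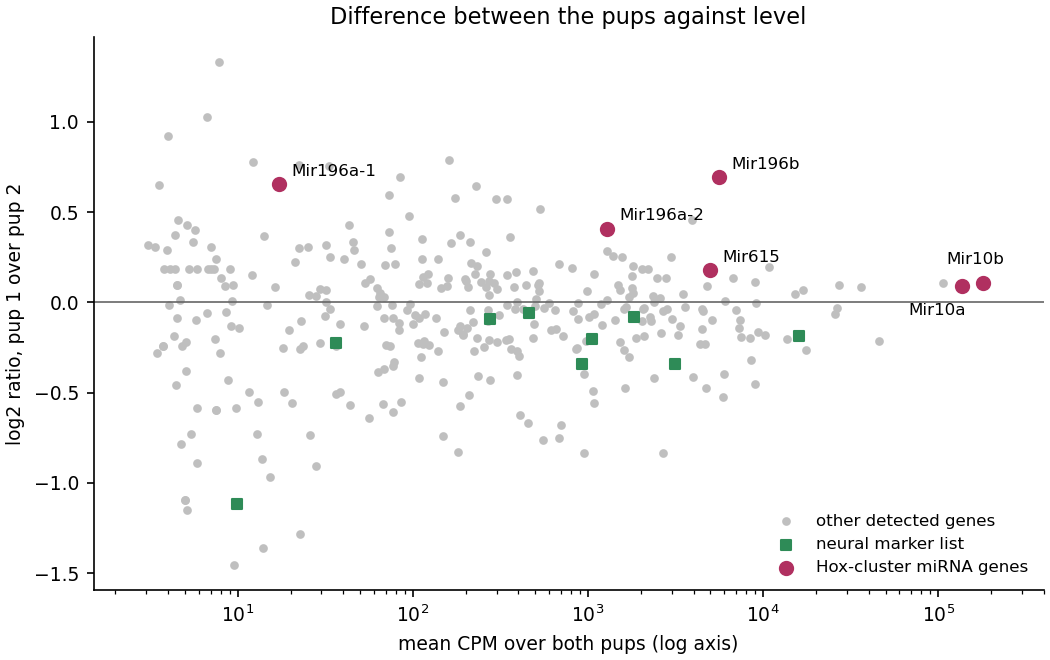
Log2 ratio of pup 1 over pup 2 against mean CPM (log axis) for the detected genes, with the Hox-cluster miRNA genes in red and the neural marker list as green squares. The members lie above 0, from 0.09 for Mir10a to 0.69 for Mir196b, while the 9 detected genes of that list lie below 0.

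Of the neural marker list used here, 6 genes were called lower in pup 1 and none higher. Neural miRNAs outside the list were not examined as a set, so these calls do not describe neural miRNAs in general. Mir129-1 and Mir129-2, also known from neurons but not listed, went the other way. Their log2 ratios were 0.79 and 0.52, both called higher in pup 1 by the exact binomial test. Of the 13 neural markers, 12 were measured (Mir9-1 is not analysed here) and 9 reached 10 counts in each pup, and they summed to 22121 CPM in pup 1 and 25478 CPM in pup 2. These 6 calls were among 11 tested, with a median log2 ratio of -0.23, where 25.7% of all tested genes were called lower and 15.3% higher. They and the marker calls that follow are from the exact binomial test, and edgeR's exact test made none of them. Mir137, a miRNA of neurons and the highest of the list, had 15026 CPM in pup 1 and 17125 CPM in pup 2. The Mir124a genes, which make the defining neuronal miR-124 from several copies, had at most 50 counts each. Mir9-2 had 3 and 7 counts, and Mir9-3 had 1447 and 1715. Reads that fit several gene copies may be in the multimapping class, and how many are there was not measured. Low counts of such copies therefore do not show that miR-124 or miR-9 was low. The sensory-neuron genes Mir182, Mir183 and Mir96 summed to 3233 and 5392 CPM, and all 3 were called lower in pup 1. Of the mesenchymal markers 0 of 4 were called higher and 3 lower, with sums of 10653 and 11353 CPM. Endothelial Mir126a was called higher, at 27838 CPM in pup 1 and 26007 CPM in pup 2, as was hepatocyte Mir122, at 104 and 64.2 CPM. Of the red blood cell markers 0 of 2 were called higher and 1 lower (128 and 152 CPM), and of the epithelial markers none of 2 was called (446 and 469 CPM). Of 4 measured striated muscle markers, Mir1a-1, Mir133a-1 and Mir133a-2 had 0 counts in both pups, which does not show that their miRNAs were absent, since each is known to share its main mature strand with another gene copy. Mir206, with 69.3 and 101.9 CPM, was called lower in pup 1. The part of these tissues in the ratios of the Hox-cluster genes was not tested.

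The seeds were also searched in the Hox messages, since both families are known to act on them. The search took the longest annotated 3′ untranslated region of each protein-coding gene in GENCODE M21, in the sense direction only. The match to bases 2 to 8 of miR-196, ACTACCT, occurred in 9 of 39 Hox genes, and in 6.11% of all 21013 genes. Over the first 500 bases of regions at least that long, it was in 23.5% of 34 Hox genes and 1.93% of 14267 others. Hoxa7 held 4 matches and Hoxc8 2. The match to the miR-10 seed, ACAGGGT, occurred in 4 of 39 Hox genes and in 12.5% of all genes, and over the first 500 bases in 2.94% of Hox genes and 4.79% of others. The miR-615-3p match, GGCTCGG, was in 1 Hox gene, Hoxb4, and in 2.30% of all genes, and over the first 500 bases in 0% of Hox genes and 1.01% of others. The miR-615-5p match, GGACCCC, was in 4 of 39 Hox genes and 6.58% of all genes, and over the first 500 bases in 11.8% of Hox genes and 3.27% of others. These matches describe sequence, not binding.

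Pairing over the whole strand singled out a known target. The best ungapped pairing of miR-196a-5p in a Hox 3′ untranslated region was in Hoxb8, whose gene lies in the same cluster as Mir196a-1, at chr11:96284888-96284909 (mm10, plus strand). It paired 21 of 22 bases, and the remaining base, opposite position 5 of the miRNA, was a G:U pair, so the exact seed match was absent. None of the 20974 other genes reached 21 bases, and the best of them reached 17. The stretch is shown 5′ to 3′ with the bases paired to miR-196a-5p in capitals.
Hoxb8 site: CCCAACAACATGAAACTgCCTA
With miR-196b-5p it paired 20 of 22 bases, the change at base 12 leaving a further base unpaired. The best pairing of miR-10b-5p in a Hox gene was 15 of 23 bases, which 1238 other genes also reached. No Hox messenger RNA was measured here.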

How the data were processed

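Per the labels, small RNA libraries were made from single neural tubes of 2 pups. The deposited values are unnormalized counts for each miRNA gene, in 3 columns for either, own and opposite strand. Build mm10 and GENCODE M4 are named in the deposited description files; which aligner and counter the authors ran was not given. Own-strand counts were used, and totals (3216453 in pup 1, 3660693 in pup 2) left out read classes that name no gene (49.4% and 49.2% of reads). CPM is the count per 1000000 own-strand counts. Symbols and positions came from GENCODE M21 by Ensembl identifier (1894 of 1973 genes); the identifier versions of Mir10b and Mir196a-2 differ from those of the tables, so their counted boundaries may differ. Mature sequences of all 6 members and hairpins of 5 came from RefSeq (GRCm38.p6).

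The pups were treated as 2 replicates of 1 group. P-values between them measure counting error. Intervals are exact Clopper-Pearson. Named genes are the members, the detected gene nearest in level to each, the miR-99, miR-100 and miR-125 genes, and the marker lists. Members, lists and tests were chosen with earlier results of these data known, and the search for whole-strand pairing was added after the tables were seen. Tests and scaling used edgeR 4.0.16 and DESeq2 1.42.0 (size factors only) in R 4.3.3; the rest used Python 3.11.15 with numpy 2.4.6, pandas 2.3.3, scipy 1.17.1 and matplotlib 3.10.9.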

Additional observations from a re-analysis of the deposited data

How the results depend on the processing

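With all reads as the total, which includes reads counted to no gene, levels were 91512 CPM (Mir10b), 68864 CPM (Mir10a), 2823 CPM (Mir196b), 2522 CPM (Mir615), 648 CPM (Mir196a-2) and 8.74 CPM (Mir196a-1). With Mir10a and Mir10b left out of the total they were 8193 CPM (Mir196b), 7295 CPM (Mir615), 1878 CPM (Mir196a-2) and 25.4 CPM (Mir196a-1). Both follow from the total chosen and leave the order unchanged. With edgeR's exact test, which allows for the variation between the pups, the number of genes called was 0 in place of 169, with 27 at an unadjusted p of at most 0.05. The calls of all members were then lost, at log2 ratios of 0.11 (Mir10b), 0.089 (Mir10a), 0.66 (Mir196a-1), 0.41 (Mir196a-2), 0.69 (Mir196b) and 0.18 (Mir615). TMM and DESeq2 scaling moved all log2 ratios by 0.04, a shift that cannot turn the sign of ratios that are all above 0. Of 109 values under alternatives, 92 stayed within the spread or on their side of the threshold, many of them by construction: leaving out either pup cannot move a mean of 2 by more than its SD, and counts of either strand are nearly those of the own strand for these genes. That count therefore shows no stability. Depth limits only Mir196a-1. No paired analysis was possible because the data hold 1 group.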
